A study of Homo sapiens with 10 samples.

Results

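Cholesterol is built from acetyl-CoA through a long chain of enzymes, and cells adjust that chain to the sterol they hold. The genes described here are 30 genes of cholesterol synthesis and sterol control, chosen by name for their known roles and not by their values in these libraries. They are 19 enzymes of the route from acetyl-CoA to cholesterol, 4 genes that sense sterols or carry the signal, 3 that bind or move sterols inside the cell, and 4 of sterol export and receptor turnover. Of the 30, 28 were among the 13029 genes measured in *ZMAT3*-WT and *ZMAT3*-KO cells, where *ABCA1* and *ABCG1* were not analysed here. All 30 were among the 17642 genes measured with siCTRL and sip53, and 29 of them were tested there. *ABCG1*, a sterol exporter, was at 0.24 FPKM in both siCTRL libraries and at 0.70 and 0.40 FPKM after knockdown, under the filter, and was not tested.

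The early enzymes of the route make mevalonate and farnesyl diphosphate, the middle ones join and close the chain into lanosterol, and the late ones trim lanosterol to cholesterol. The main switch is SREBP-2, the product of *SREBF2*, a transcription factor held in the endoplasmic reticulum with its escort SCAP. When membranes hold enough sterol, the INSIG proteins keep SCAP and SREBP-2 in place. When sterol falls, SCAP carries SREBP-2 to the Golgi, where proteases free the part that enters the nucleus and switches on genes of synthesis and uptake. The LXR receptors answer the opposite state: oxidised sterols activate them, and they switch on export pumps and a ligase that removes lipoprotein receptors.

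Poly(A) RNA was sequenced from HCT116 cells, a human colorectal cancer line that carries wild-type p53, grown in DMEM with 10% FBS and given no drug. In the siRNA experiment, 2 cultures received a control siRNA (siCTRL) and 2 received a pool of 4 siRNAs against p53 (sip53), all for 72 hr. In the *ZMAT3* experiment, 3 libraries came from 1 *ZMAT3*-WT clone and 3 from 1 *ZMAT3*-KO clone, so the comparison is between 2 clones. Both clones had passed through electroporation of Cas9 and guide plasmids, puromycin selection and single-cell seeding, and the guides flanked the p53 response element in the second intron of *ZMAT3*, whose RNA-binding protein is induced by p53. The labels of these 6 libraries add EV and unt, which the sources used here do not explain.

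The labels were checked on their target genes first. *ZMAT3* stood at 5.00, 5.20 and 5.26 log2 CPM (reads scaled to a common library total, on a log2 scale) in *ZMAT3*-WT and at 2.25, 2.34 and 2.20 in *ZMAT3*-KO. *CDKN1A*, a classic p53 target, stood at 525 and 481 FPKM (fragments scaled by transcript length and library total) with siCTRL and at 34.2 and 37.7 with sip53, and *ZMAT3* itself at 12 and 13.6 against 3.16 and 1.97 FPKM. The low groups did not overlap the high ones in any of these checks. *CDKN1A* was also lower in *ZMAT3*-KO, at 7.12, 7.06 and 7.15 log2 CPM against 7.66, 7.66 and 7.61 in *ZMAT3*-WT (fold 0.692). The epithelial markers *EPCAM*, *KRT8*, *KRT18*, *CDH1* and *CDX2* were present in every library, whereas *VIL1* was at 0.13 to 0.22 FPKM in the siRNA libraries. Of 4 markers of other cell types only *COL1A1* was measured, at 3.20 to 3.45 log2 CPM and 4.08 to 7.06 FPKM. *KRT8* was at 11.6 to 11.7 log2 CPM in *ZMAT3*-WT and at 10.7 in all *ZMAT3*-KO libraries, and *KRT18* at 10.4 to 10.5 against 9.63 to 9.70. The ranges of *EPCAM* (8.51 to 8.56 against 8.54 to 8.58) and *CDH1* (6.28 to 6.36 against 6.32 to 6.41) overlapped, and *CDX2* was at 4.51 to 4.59 against 4.43 to 4.51. *EPCAM* was at 205 and 191 FPKM with siCTRL and at 281 and 319 with sip53. The part of these markers in the results was not tested. The depth of the libraries is unknown, since neither table holds counts. In RNA from whole cultures, fewer cells that express a gene and less RNA per cell cannot be told apart.

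Most enzymes of the route were higher after p53 knockdown. Of the 29 sterol genes tested, 11 rose and 2 fell at an unadjusted p under 0.05 in limma, and 16 did not pass. By the same rule 15.1% of all 14274 genes passed, 5.86% rising and 9.28% falling. Those shares are not matched for level. The median siCTRL level was 29.0 FPKM over the sterol genes and 11.0 over all genes tested. Every one of the 13 that passed also changed by at least 1.5-fold. Of the 2 that fell, *ABCA1* met the filter on low FPKM only through its siCTRL libraries. The risen genes were 10 of the 19 enzymes and *INSIG1*, and their folds ran from 1.59 to 3.31. After adjustment over all genes none of the 29 passed, where 0.273% of all genes did. The lowest adjusted p was 0.0869 for *HMGCS1*, and that of the risen genes reached 0.247. The median log2 fold change, on the log2(FPKM + 0.1) scale, was 0.37 over the 29 sterol genes and 0.67 over the 19 enzymes, against -0.040 over all genes tested. Both sip53 libraries lay above both siCTRL libraries for 16 sterol genes and below them for 5, where 20.1% and 26.3% of all genes did so.

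Of the 7 early enzymes 5 rose and none fell, with a median log2 fold change of 0.85. *HMGCS1* makes HMG-CoA, the substrate from which mevalonate is formed. It was at 22.8 and 28.4 FPKM in the siCTRL libraries and at 98.6 and 72.3 in the sip53 libraries. Both knockdown libraries were far above the higher control, and *HMGCS1* had the largest fold of the 29, 3.31 (log2 1.73, 95% interval 1.13 to 2.32, limma unadjusted p = 0.00056). *ACAT2*, the cytosolic thiolase that joins acetyl-CoA units, was at 21.9 and 23.2 FPKM in controls and at 46.3 and 44.9 after knockdown. *IDI1*, which interconverts the isoprenoid building blocks, was at 44.4 and 45.5 against 101 and 83.4 FPKM. In both genes the groups were well apart, with folds of 2.02 for *ACAT2* and 2.04 for *IDI1*. In GENCODE the exons of *ACAT2* overlap those of *SOD2* and *TCP1* on the opposite strand.

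*FDPS*, which builds farnesyl diphosphate, was at 161 and 162 FPKM in controls and at 293 and 289 after knockdown. *MVD*, which decarboxylates mevalonate diphosphate, was at 48.6 and 47.7 against 74.3 and 79.4 FPKM. Both rose, *FDPS* 1.8-fold and *MVD* 1.59-fold, although *MVD* no longer passed when siCTRL 1, siCTRL 2 or sip53 2 was left out (unadjusted p = 0.0705, 0.0817 and 0.0556 in limma). The 2 kinases that act before *MVD* did not pass. *MVK*, the mevalonate kinase, had both sip53 libraries above both controls (15.7 and 17.4 against 22.1 and 22.3 FPKM, log2 fold change 0.42, interval -0.013 to 0.86). *MVK* was borderline and passed with median centring, a filter at 5 FPKM or no filter (limma unadjusted p = 0.0323, 0.0467 and 0.0336). *PMVK*, the phosphomevalonate kinase, was at 20.8 and 25.4 against 20.6 and 18.9 FPKM, so its values with sip53 were slightly below both controls.

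In the middle of the route *FDFT1* makes squalene, *SQLE* adds the first oxygen and *LSS* closes the rings. *FDFT1* was at 219.9 and 214 FPKM with siCTRL, the highest mean per length of the sterol genes, and at 422 and 445 after knockdown. *SQLE* was at 33.1 and 30.2 against 65.3 and 75.8 FPKM. These neighbours on the route rose by folds whose intervals overlap, 1.99 for *FDFT1* (log2 1.00, interval 0.53 to 1.46) and 2.22 for *SQLE* (log2 1.15, interval 0.69 to 1.62). *LSS* stood apart, at 17.1 and 21.0 FPKM in controls and at 17.7 and 16.7 after knockdown. Its groups overlapped and its interval of -0.62 to 0.34 holds no rise of the size seen for *FDFT1*. The ratio of *FDFT1* to *LSS* in FPKM was 12.8 and 10.2 in the controls and 23.8 and 26.7 after knockdown, which an exact permutation test puts at p = 0.333, the smallest that 2 against 2 libraries allow. The pair sets a gene that rose beside 1 that did not, so the ratio is a description.

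The late enzymes were mixed. *EBP*, a sterol isomerase, was at 81.4 and 81.9 FPKM in controls and at 150.1 and 169 after knockdown. *HSD17B7*, a reductase of sterol ketones, was at 14.1 and 16.8 against 32.1 and 24.9 FPKM. *SC5D*, a sterol desaturase, was at 33.3 and 24.7 against 43.3 and 50.6 FPKM. All 3 rose, by 1.95-fold, 1.83-fold and 1.63-fold, and in none did the groups overlap. *HSD17B7* did not pass without siCTRL 1 (limma unadjusted p = 0.0630), nor *SC5D* without siCTRL 2 or sip53 2 (0.176 and 0.0943). A near copy of *HSD17B7*, the pseudogene *HSD17B7P2*, was at 0.98 and 1.04 against 2.04 and 1.42 FPKM, and how reads were divided between the copies is not given in the sources used here. In GENCODE the exons of *EBP* overlap those of an unnamed protein-coding gene on the same strand.

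*TM7SF2* went the other way. It encodes 1 of a pair of sterol reductases that act on the same step, and was at 35.8 and 45.3 FPKM in controls and at 24.6 and 27.6 after knockdown. It fell to 0.647 of control (limma unadjusted p = 0.0243), a call lost without siCTRL 2 or sip53 1 (0.189 and 0.103), and in GENCODE its exons overlap those of *VPS51* on the same strand. *LBR*, the other enzyme of that step and also a protein of the nuclear envelope, was at 40.6 and 31.7 against 46.9 and 42.4 FPKM and did not pass. Per length, *TM7SF2* was at 0.883 and 1.43 times *LBR* in the controls and at 0.524 and 0.650 times after knockdown (exact permutation p = 0.333, the smallest possible). Here too the pair sets a gene that passed beside 1 that did not. Of the remaining late enzymes, *CYP51A1*, the lanosterol demethylase, had a log2 fold change of 0.50 (interval -0.065 to 1.06) and *NSDHL*, a decarboxylase, 0.25, both with groups that did not overlap. *CYP51A1* passed with median centring (limma unadjusted p = 0.0459). *MSMO1* (-0.17) and *DHCR7* (0.043), which oxidise and reduce late sterols, overlapped.

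**Figure D1:**
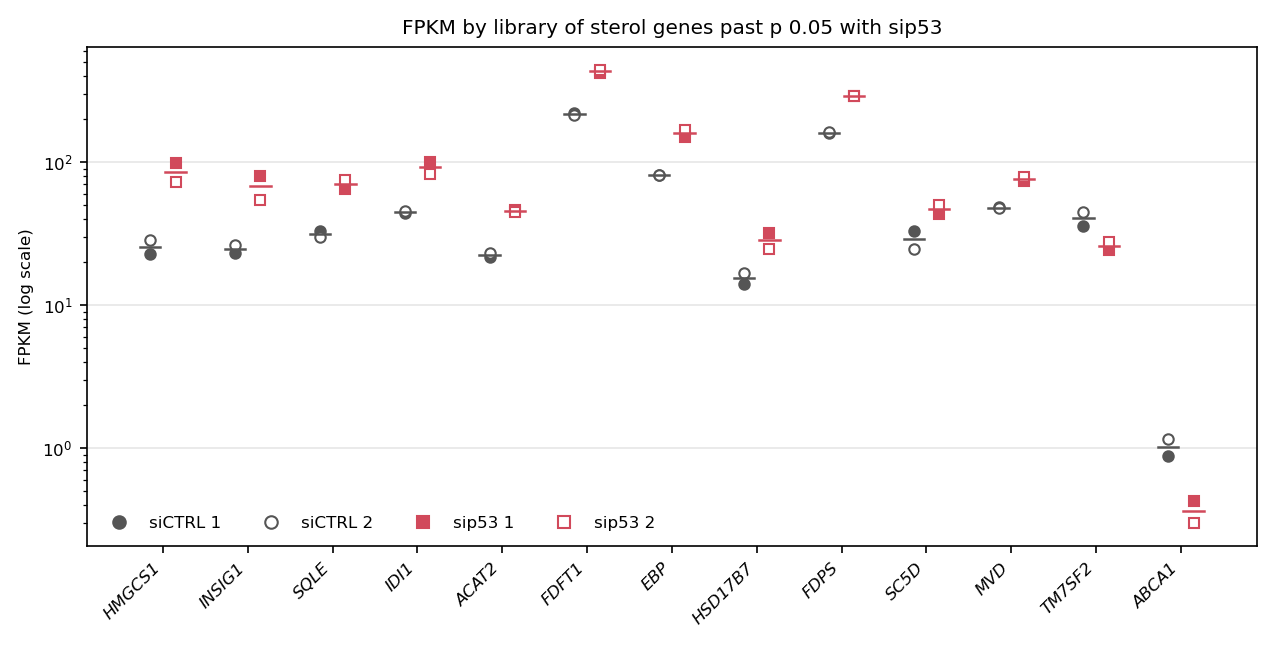
FPKM on a log axis of the 13 sterol genes past an unadjusted p of 0.05, with circles for siCTRL 1 and 2, squares for sip53 1 and 2 and bars for group means. In the 11 genes at the left both sip53 libraries lie above both siCTRL libraries, and in *TM7SF2* and *ABCA1* both lie below.

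Among the genes that sense sterols or carry the signal, *INSIG1* rose and the others did not pass. *INSIG1* holds SCAP back when sterol is plentiful. It was at 23.3 and 26.4 FPKM in controls and at 80.8 and 54.6 after knockdown. The groups were far apart, with a fold of 2.68 (log2 1.42, interval 0.80 to 2.04, limma unadjusted p = 0.00175), the second largest after *HMGCS1*. *INSIG2*, its relative, was at 8.48 and 15.3 against 17.5 and 8.55 FPKM, so replicates differed more than groups. The ratio of *INSIG1* to *INSIG2* was 2.74 and 1.73 in controls and 4.62 and 6.39 after knockdown (exact permutation p = 0.333, the smallest possible). *SREBF2* was at 75.9 and 73.8 against 83.4 and 72.7 FPKM, with a log2 fold change of 0.057 and an interval of -0.40 to 0.51. *SCAP* was at 30.1 and 26.3 against 21.6 and 25 FPKM, both sip53 libraries below both controls, with a log2 fold change of -0.27 and an interval of -0.75 to 0.20. The RNA of the switch and of its escort therefore did not pass in either direction, and processed SREBP-2 protein is not part of these data.

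The genes of sterol movement did not pass. *NPC1*, which lets cholesterol out of lysosomes, was at 17.9 and 20.5 FPKM in controls and at 31.0 and 19.7 after knockdown. *STARD4*, a soluble sterol carrier, was at 15.9 and 17.8 against 23.2 and 14.1 FPKM. *TMEM97*, a partner of NPC1 in the membrane, was at 79.5 and 33.3 against 38.4 and 70.8 FPKM. In all 3 the groups overlapped, and for *TMEM97* replicates of 1 group differed by about as much as any pair of libraries. On the export side 1 gene fell. *ABCG1*, which the filter on low FPKM left out, was higher in both sip53 libraries. *ABCA1*, the pump that loads cholesterol onto lipoproteins, was at 0.88 and 1.17 FPKM in controls and at 0.43 and 0.30 after knockdown. It met the filter of 0.5 FPKM only through its siCTRL libraries, so its call depends on where that filter was set. It fell to 0.413 of control (log2 -1.28, interval -2.35 to -0.20, limma unadjusted p = 0.0278) from a very low level, and the call was lost without siCTRL 2 or sip53 2 (0.135 and 0.0836). *MYLIP*, the LXR-driven ligase that removes lipoprotein receptors, was at 13.4 and 14.9 against 11.8 and 7.83 FPKM, below both controls but short of the threshold. *NR1H2*, the LXR receptor measured here, had a log2 fold change of 0.41 (interval -0.10 to 0.92).

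Whether the risen genes share letters in their promoters was then described, since SREBP-2 binds sterol regulatory elements and works with the CCAAT-binding factor NF-Y and with Sp1, which binds GC boxes. RefSeq promoters on GRCh38.p14, each from 250 bases before to 50 bases after a start, were at hand for 26 of the 30 genes and for 8 of the 11 that rose. All motifs were searched on both strands, a gene counted if any of its promoters held the letters, and a base shared by more than 1 motif counted for each. The NF-Y box CCAAT was in 8 of those 8 and in 10 of the other 18 sterol genes, against 43.5% of the 9403 genes tested in the siRNA experiment that have a promoter in the table and 34.6% of all 35116 promoters. The GC box GGGCGG was in 8 of 8 and 16 of 18, against 78.8% of tested genes and 45% of promoters. The E-box CACGTG was in 2 of 8 and 3 of 18, against 12.6% and 7.26%. The sterol regulatory element TCACNCCAC was in *SREBF2* alone of the 26 genes with a promoter, against 1.51% of tested genes and 1.13% of promoters. Only these letters were searched, so elements spelled otherwise were not counted. The risen genes *SQLE*, *FDFT1* and *ACAT2* had no promoter to search. These are counts of letters in short windows, and genes with several promoters had more chances to hold one.

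Windows of 55 bases around the NF-Y box are shown for 7 of the risen genes, since these letters, like the more widespread GC box, were in all 8, and 1 window of 59 bases shows the sterol regulatory element. All are from RefSeq, GRCh38.p14, written 5′ to 3′ on the strand of the gene, with the motif in capitals. ATTGG is CCAAT read on the other strand.
*HMGCS1* (chr5:43313538-43313592, minus strand): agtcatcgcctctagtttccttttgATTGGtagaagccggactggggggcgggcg
*INSIG1* (chr7:155297683-155297737, plus strand): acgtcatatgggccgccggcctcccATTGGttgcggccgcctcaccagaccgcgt
*IDI1* (chr10:1049207-1049261, minus strand): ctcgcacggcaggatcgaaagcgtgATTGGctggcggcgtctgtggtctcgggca
*FDPS* (chr1:155308665-155308719, plus strand): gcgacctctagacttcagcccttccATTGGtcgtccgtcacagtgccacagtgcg
*EBP* (chrX:48521713-48521767, plus strand): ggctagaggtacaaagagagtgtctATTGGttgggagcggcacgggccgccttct
*HSD17B7* (chr1:162790625-162790679, plus strand): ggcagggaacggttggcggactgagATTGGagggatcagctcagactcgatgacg
*MVD* (chr16:88663182-88663236, minus strand): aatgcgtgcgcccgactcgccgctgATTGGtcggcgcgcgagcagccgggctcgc
*SREBF2* (chr22:41832947-41833005, plus strand): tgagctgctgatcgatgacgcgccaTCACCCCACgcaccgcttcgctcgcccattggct

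The boxes shown lay upstream of the start. The first base of the box was 155 bases before the start in *HMGCS1*, 170 in *INSIG1*, 117 in *IDI1*, 176 in *FDPS*, 70 in *EBP*, 52 in *HSD17B7* and 120 in *MVD*, and the element of *SREBF2* began 133 bases before its start. In the 7 windows shown the box is read on the strand opposite to the gene. *HMGCS1*, *FDPS*, *EBP*, *IDI1* and *MVD* hold further boxes that are not shown. Of these, the boxes of *FDPS* at 122 and *MVD* at 85 bases before the start read CCAAT on the strand of the gene. So does a box of *IDI1*, 132 bases before a different start from the one used for its window.

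In the *ZMAT3*-KO clone the sterol genes changed little, with 1 exception. *SQLE*, which encodes squalene epoxidase and catalyses a rate-limiting step of the route, was at 6.40, 6.40 and 6.40 log2 CPM in *ZMAT3*-WT and at 5.66, 5.70 and 5.59 log2 CPM in *ZMAT3*-KO. The 3 *ZMAT3*-WT libraries were alike to 2 decimals and all *ZMAT3*-KO libraries were below them. *SQLE* fell to 0.597 of the *ZMAT3*-WT level (log2 -0.74, SE 0.035, adjusted p = 2.51e-09 in limma). It was the only sterol gene that changed by at least 1.5-fold with an adjusted p under 0.05, where 8.96% of all genes were called, 4.6% higher and 4.37% lower.

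At an adjusted p under 0.05 alone, 6 of the 28 sterol genes rose, 8 fell and 14 did not pass. By that rule 58.8% of all 13029 genes passed, 28.7% rising and 30.1% falling. Groups did not overlap for 6 genes above *ZMAT3*-WT and 9 below, where 31.3% and 32.9% of all genes were so placed. The median log2 fold change of the sterol genes was -0.017, against -0.0052 over all genes, and their median size without sign was 0.095, against 0.17. All genes include values down to -6.62 log2 CPM, so they are not matched to the sterol genes for level. Their changes ran from -0.74 to 0.28, and all but *SQLE* lay between the 5th and 95th percentiles of all genes, -0.55 and 0.57.

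**Figure D2:**
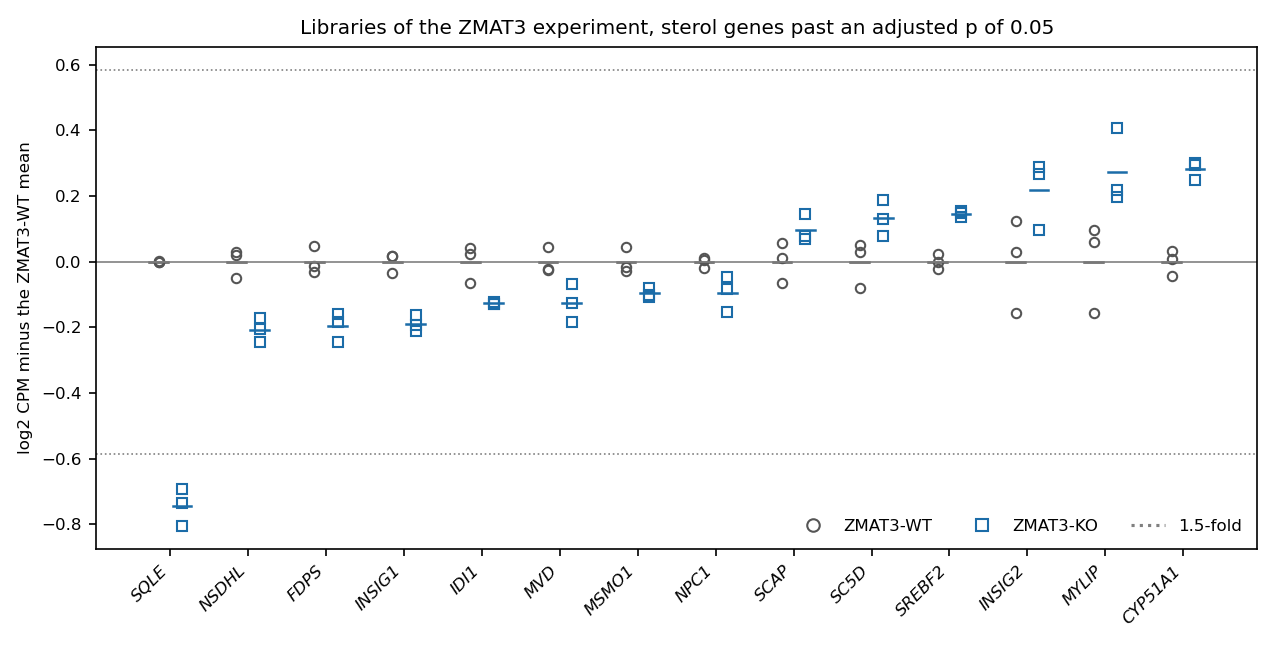
Each library's log2 CPM minus the *ZMAT3*-WT mean for the 14 sterol genes past an adjusted p of 0.05, with circles for 3 *ZMAT3*-WT and squares for 3 *ZMAT3*-KO libraries, bars for group means and dotted lines at a 1.5-fold change. The *ZMAT3*-KO libraries of *SQLE* lie beyond the lower dotted line, and those of the other 13 genes lie within the lines.

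The genes on either side of *SQLE* on the route did not pass the threshold. *FDFT1*, the step before, was at 8.04 to 8.06 log2 CPM in *ZMAT3*-WT and at 8.08 to 8.09 in *ZMAT3*-KO, with a log2 fold change of 0.033 (interval -0.021 to 0.086). *LSS*, the step after, was at 5.94, 5.92 and 5.90 against 5.89, 5.83 and 5.80 log2 CPM. All its *ZMAT3*-KO libraries lay below all *ZMAT3*-WT libraries, with a log2 fold change of -0.083 (interval -0.16 to -0.0077, adjusted p = 0.0555 in limma). *LSS* passed as lower without *ZMAT3*-KO 1 (adjusted p = 0.0346). It also passed with a replicate block (adjusted p = 0.0344), although the replicate numbers do not pair the libraries. The log2 ratio of *SQLE* to *FDFT1* was -1.66, -1.66 and -1.64 in *ZMAT3*-WT and -2.42, -2.38 and -2.49 in *ZMAT3*-KO, a difference of -0.78. The log2 ratio of *SQLE* to *LSS* differed by -0.66. An exact permutation test gave p = 0.1 for each ratio, the smallest that 3 against 3 libraries allow. Each pair sets a gene that fell beside 1 that did not pass, so these ratios are a description.

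Of the 7 early enzymes 3 fell and none rose, where 30.1% and 28.7% of all genes did. *FDPS* fell by 0.20 on the log2 scale (adjusted p = 0.000218), and *IDI1* and *MVD* each fell by 0.13, all with groups that did not overlap. *PMVK* (-0.12, adjusted p = 0.0614), *HMGCS1* (-0.045), *ACAT2* (0.043) and *MVK* (0.053) did not pass. *PMVK* passed as lower without *ZMAT3*-WT 1 or *ZMAT3*-KO 3 and with a replicate block (adjusted p = 0.0446, 0.0283 and 0.0367 in limma). *HMGCS1* passed as lower without *ZMAT3*-WT 1 (0.0385). The median of the 7 was -0.12. Among the 9 late enzymes 2 rose and 2 fell. *CYP51A1* was at 7.60, 7.65 and 7.68 log2 CPM in *ZMAT3*-WT and at 7.94, 7.89 and 7.94 in *ZMAT3*-KO, a rise of 0.28 (adjusted p = 4.44e-06) that was the largest upward change of the 28. *NSDHL* fell by 0.21 (adjusted p = 0.000495). *SC5D* rose by 0.13 and *MSMO1* fell by 0.096, and these calls did not hold up when single libraries were left out, *SC5D* without *ZMAT3*-KO 3 (adjusted p = 0.0717) and *MSMO1* without *ZMAT3*-KO 1 or *ZMAT3*-WT 2 (0.0659 and 0.11). The other 5 late enzymes had changes between -0.072 and 0.073, and of these *EBP* passed as higher without *ZMAT3*-WT 1 (adjusted p = 0.0338 in limma). In GENCODE the exons of *CYP51A1* overlap those of *AKAP9* on the opposite strand and of 2 unnamed protein-coding genes on its own strand, and whether strand was used in counting is not given in the sources used here.

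All 4 sensing genes passed, where 58.8% of all genes did, with changes of at most 0.22 on the log2 scale. *SREBF2* was at 7.76, 7.73 and 7.71 log2 CPM in *ZMAT3*-WT and at 7.89, 7.87 and 7.88 in *ZMAT3*-KO. *INSIG1* was at 6.47, 6.52 and 6.52 against 6.34, 6.31 and 6.29. In both genes the 3 libraries of each group lay close together and apart from the other group, with *SREBF2* higher by 0.15 (adjusted p = 0.000404) and *INSIG1* lower by 0.19 (adjusted p = 0.000205). *SCAP* was at 6.39, 6.34 and 6.27 against 6.48, 6.40 and 6.41, and *INSIG2* at 3.39, 3.57 and 3.67 against 3.81, 3.64 and 3.83. *SCAP* (0.098, adjusted p = 0.0378) and *INSIG2* (0.22, adjusted p = 0.0260) rose by margins near the spread between libraries. *SCAP* did not pass without *ZMAT3*-KO 1, *ZMAT3*-KO 3, *ZMAT3*-WT 2 or *ZMAT3*-WT 3, where its adjusted p was 0.163, 0.0586, 0.0679 and 0.186, and *INSIG2* did not without *ZMAT3*-KO 1, *ZMAT3*-KO 3 or *ZMAT3*-WT 1, where it was 0.0882, 0.0941 and 0.105.

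Of the transport genes *NPC1* fell by 0.094 (adjusted p = 0.0446). That call rested on nearly every library, since the adjusted p was between 0.0673 and 0.204 when any *ZMAT3*-WT library, *ZMAT3*-KO 1 or *ZMAT3*-KO 3 was left out. *STARD4* and *TMEM97* each stood at -0.018. *MYLIP* rose by 0.27 (adjusted p = 0.0141), a call lost without *ZMAT3*-KO 2 or *ZMAT3*-WT 3 (0.0698 and 0.0677), and *NR1H2* stood at 0.011.

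**Figure D3:**
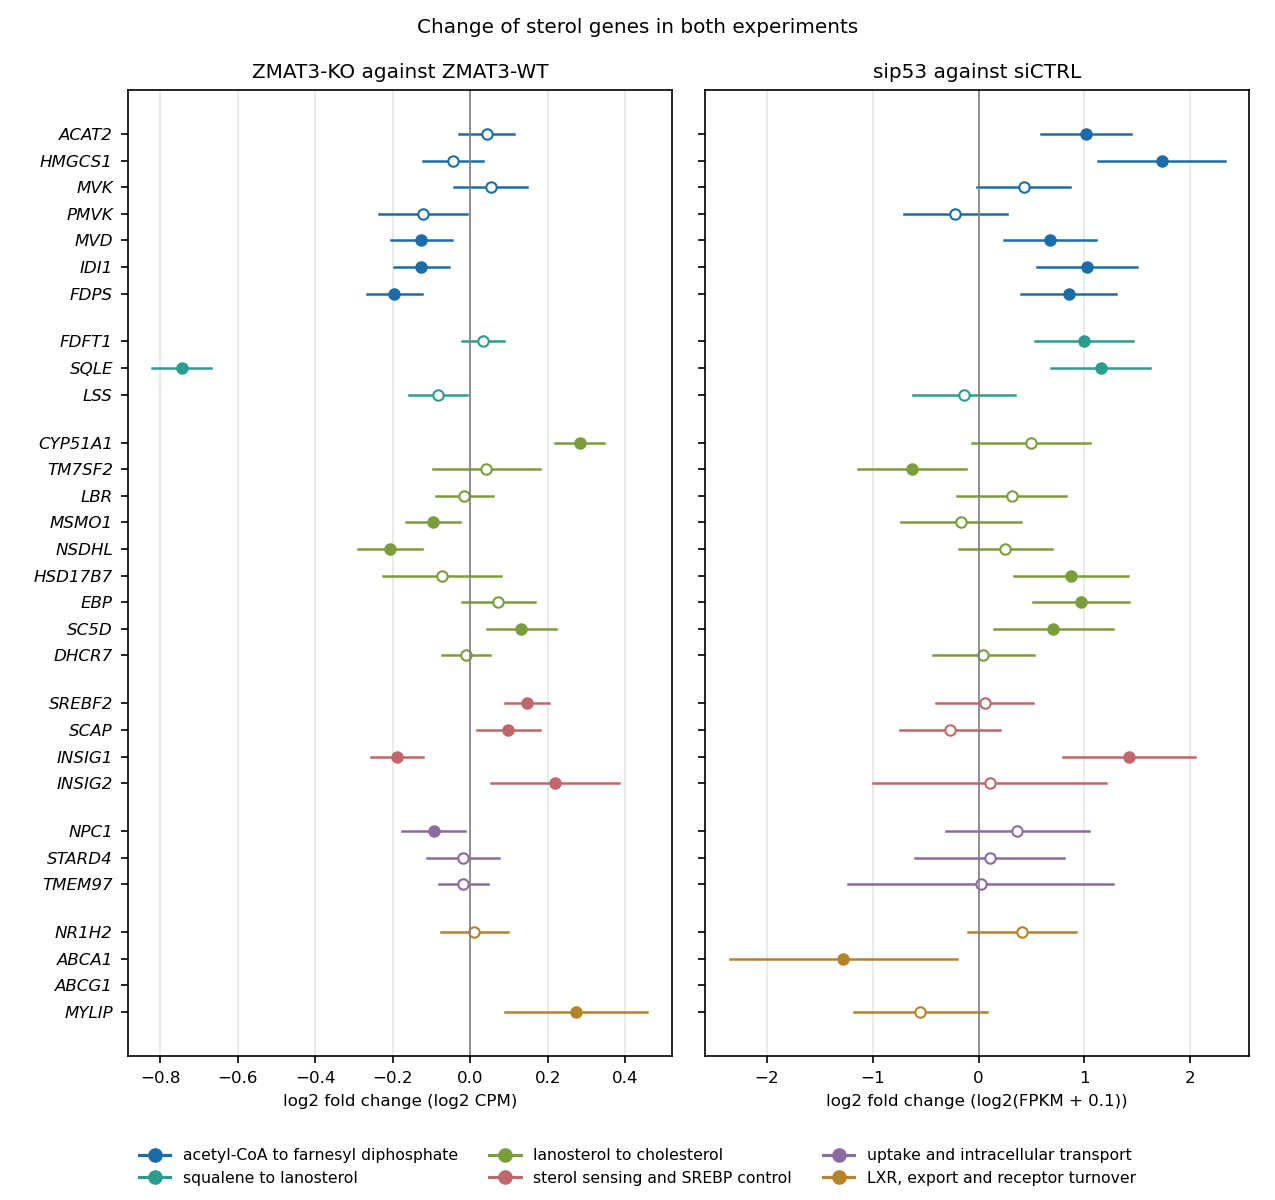
Log2 fold change with its 95% interval of each sterol gene in the order of the route, *ZMAT3*-KO against *ZMAT3*-WT at the left and sip53 against siCTRL at the right, on axes of different range. Filled points passed the threshold of their experiment (adjusted p of 0.05 at the left, unadjusted p of 0.05 at the right). *SQLE* is the lowest point at the left, at -0.74, and among the high points at the right, at 1.15.

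Of the 28 genes tested in both experiments, 12 had the same sign, 9 positive and 3 negative. The experiments share no libraries, and *ZMAT3* itself was lower with sip53, as given above. Over the 28 genes Pearson's r between the log2 fold changes was -0.37 and Spearman's rho -0.28, and r was -0.29 over 27 genes without *SQLE*. The points are genes of 1 pathway that share their libraries, so these values are a description. *SC5D* was the only gene that rose in both. *SQLE*, *FDPS*, *INSIG1*, *MVD* and *IDI1* fell in *ZMAT3*-KO and rose with sip53. *SQLE* was the clearest of these, at 0.597 of its control in 1 experiment and 2.22 times its control in the other. The tables were normalized separately, and the difference between experiments was not tested. Over all genes 30.1% fell in *ZMAT3*-KO and 5.86% rose with sip53. Shared signs, correlations and opposite calls were not worked out over all genes, so the values above have no background beside them.

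Neighbouring pathways were set beside the sterol genes, as 46 further genes in 4 lists. With sip53, 44 were tested, of which 2 rose and 5 fell, where 5.86% and 9.28% of all genes did. Their median log2 fold change was -0.083. In the list of SREBP processing, the proteases and membrane proteins that act on SREBPs, none of 9 rose and 2 fell. *ERLIN2*, a membrane scaffold protein of the endoplasmic reticulum, was at 19.3 and 21.5 against 10.1 and 11.3 FPKM (fold 0.525). *C12orf49*, also called *SPRING1* and needed for SREBP activation, was at 17.7 and 21.8 against 13.4 and 9.07 FPKM (fold 0.563). Both sip53 libraries were below both controls in each. *SREBF1*, which makes the other SREBP proteins, had overlapping groups and a log2 fold change of 0.14.

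Of the 11 genes of fatty acid synthesis, which SREBPs also drive, none rose and 1 fell, and the median was -0.062. The gene that fell was *ACLY*, which makes the cytosolic acetyl-CoA that feeds both routes. It was at 142 and 155 FPKM in controls and at 70.0 and 57.3 after knockdown. Both knockdown libraries were far below both controls, and the fold was 0.428 (limma unadjusted p = 0.00121, adjusted p = 0.107). Of 13 genes of the isoprenoid branch, which draws farnesyl diphosphate away from sterols, 2 rose and 2 fell, with a median of -0.084. Only *FNTB*, a subunit of protein farnesyltransferase, changed by 1.5-fold, from 17.6 and 14.2 to 8.42 and 9.51 FPKM (fold 0.569). Of 11 genes of sterol transport and esterification none rose and none fell, at a median of -0.18.

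In *ZMAT3*-KO, 45 of the neighbours were tested, of which 13 rose and 10 fell, where 28.7% and 30.1% of all genes did. The counts were 4 risen and 1 fallen of 9 for SREBP processing, 1 and 4 of 13 for the isoprenoid branch, 5 and 3 of 12 for transport and esterification, and 3 and 2 of 11 for fatty acid synthesis. The medians ran from -0.058 to 0.025. One gene changed by 1.5-fold, *NCEH1*, which releases cholesterol from its stored esters. It was at 5.20, 5.20 and 5.13 log2 CPM in *ZMAT3*-WT and at 4.43, 4.46 and 4.43 in *ZMAT3*-KO. All *ZMAT3*-KO libraries were lower, at 0.600 of *ZMAT3*-WT (log2 -0.74, adjusted p = 1.01e-08), a change of the same size as that of *SQLE*. With sip53 *NCEH1* was at 10.2 and 9.89 against 10.8 and 7.76 FPKM, with groups that overlapped.

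**Figure D4:**
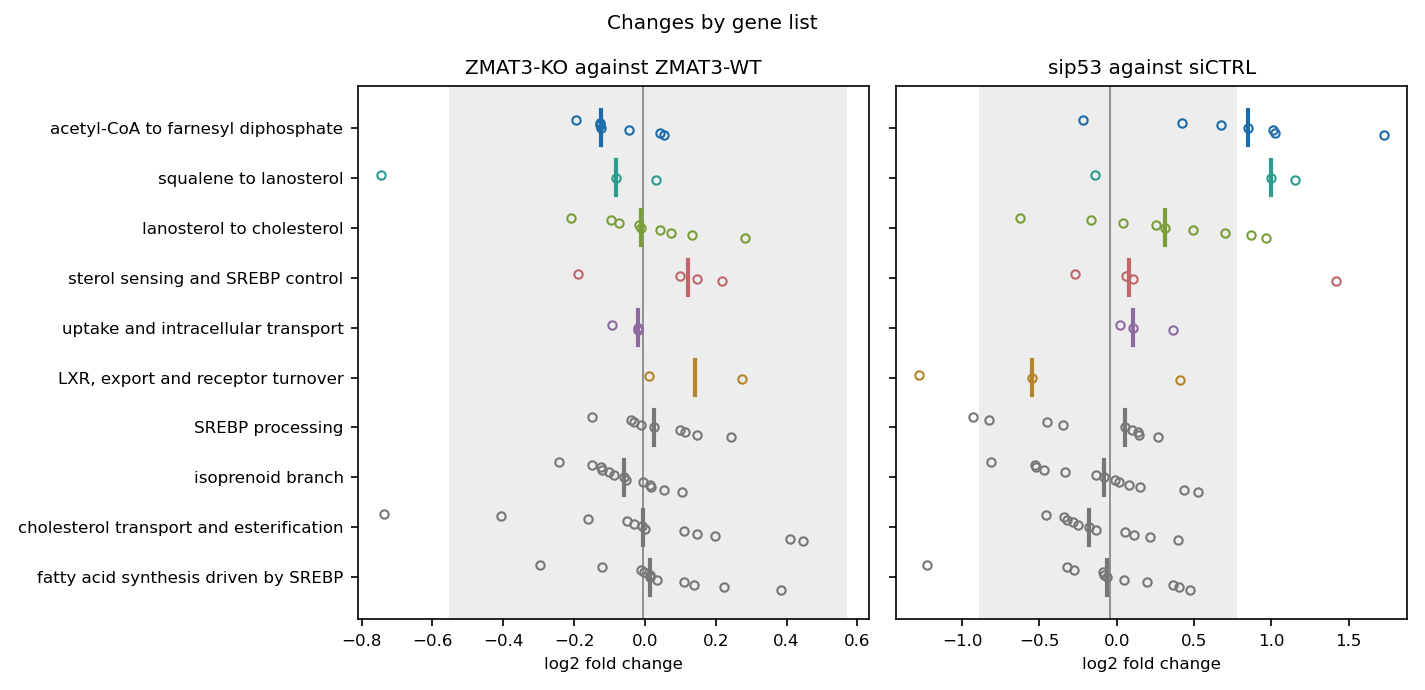
Log2 fold changes of the 6 role groups of the sterol genes (coloured) and the 4 lists of neighbouring genes (grey), 1 circle a gene and a bar at each median, with all genes between their 5th and 95th percentiles shaded and their median as a line. At the right the medians of the early and middle enzymes, 0.85 and 1.00, lie beyond the upper edge of 0.77, and at the left every median lies within the shading, from -0.12 to 0.14.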

How the data were processed

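Values of 10 poly(A) RNA-seq libraries of HCT116 cells were used, grouped by their labels. The *ZMAT3* table holds log2 CPM as deposited, which the authors derived from reads trimmed by Cutadapt, mapped by STAR to hg38 and summed per gene by RSEM. The step from RSEM to these values is not given in the sources used here. The 6 libraries share 1 distribution, so differences in total RNA are not visible. The deposited siRNA values were taken to be FPKM from their scale, and the build and pipeline behind them are not given for these libraries. The submitters' processing notes name CASAVA 1.8.2, TopHat2 2.0.8 and FastQC 0.11.2 with no role. Both tables also hold the authors' own fold changes and p-values, which were not used. Counts were not analysed here, so depth is unknown.

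Each table was fitted separately over all its genes with limma 3.58.1 in R 4.3.3 (two-sided moderated tests, variance trend, adjustment by Benjamini and Hochberg), a step tested on simulated data. The *ZMAT3* values were used as deposited. FPKM values entered as log2(FPKM + 0.1), a scale that understates the change of low genes such as *ABCA1*, and genes whose mean fell short of 0.5 FPKM were left out. The threshold was an adjusted p of 0.05 for the *ZMAT3* libraries and, for the siRNA libraries, 0.05 without adjustment. "Rose" and "fell" refer to these thresholds. P-values measure the spread between cultures of 1 clone or 1 line. Ratios of genes were compared with two-sided exact permutation tests in scipy 1.17.1. These pairs were not planned, and each sets a gene that passed beside 1 that did not. Separation of the groups therefore follows largely from the choice of pair.

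Values in every library were given for sterol genes past the threshold with a 1.5-fold change in *ZMAT3*-KO, for those past it with sip53 and for *SREBF2*, *SCAP*, *INSIG1* and *INSIG2*. Values of further sterol genes were added after they had been seen. Of the neighbouring genes those past the threshold with a 1.5-fold change were named, and *SREBF1* was added. The genes, lists and motifs were chosen with earlier results of these data known. Alternatives were another pseudocount, other filters, median centring, a fit without the variance trend, a replicate block, other thresholds and leaving out each library.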

Additional observations from a re-analysis of the deposited data

How the results depend on the processing

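Median centring removed a shift of all genes of -0.076 (log2) in the siRNA experiment and of -0.00052 in the *ZMAT3* experiment, and turned no sterol gene's direction. The 6 *ZMAT3* libraries share 1 distribution as deposited, so centring could barely change their values and is no check there. With sip53 (11 sterol genes higher, 2 lower, median 0.37) centring gave 13 higher and a median of 0.44. No filter gave 12 higher, and a filter at 5 FPKM gave 12 higher and left 1 lower. An adjusted p of 0.05 left 0 higher and 0 lower in limma. Leaving out 1 library gave 9 to 11 higher, 0 to 2 lower and medians of 0.31 to 0.46, the highest without siCTRL 2. In *ZMAT3*-KO (6 higher, 8 lower, median -0.017) no variance trend gave 3 higher, and adding a 1.5-fold change left 0 higher and 1 lower. Leaving out 1 library gave 3 to 6 higher, the fewest without *ZMAT3*-KO 3, 6 to 9 lower, and medians of -0.038 to -0.0047.

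A replicate block left 8 sterol genes higher and 0 lower with sip53, where *FDPS*, *MVD*, *SC5D*, *TM7SF2* and *ABCA1* were lost, and 6 higher and 10 lower in *ZMAT3*-KO. The numbers do not pair the libraries: correlations of same-numbered deviations were -0.039, -0.022 and -0.093 in the *ZMAT3* experiment and -0.62 in the siRNA experiment, where a crossed pairing, chosen after seeing the data, gave 17 higher and 4 lower.

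Directions turned for some genes that were not called when 1 library was left out. In *ZMAT3*-KO the log2 fold changes ran from -0.021 to 0.0075 for *DHCR7*, from -0.069 to 0.013 for *STARD4* (and 0.0011 without *ZMAT3*-WT 3), from -0.053 to 0.0060 for *LBR* and from -0.0011 to 0.025 for *NR1H2*. With sip53 they ran from -0.41 to 0.62 for *INSIG2* (and -0.32 without siCTRL 1), from -0.61 to 0.65 for *TMEM97* (and -0.42 without sip53 2), from -0.28 to 0.0048 for *LSS*, from -0.089 to 0.18 for *DHCR7*, from -0.25 to 0.46 for *STARD4*, from -0.041 to 0.16 for *SREBF2* and from -0.38 to 0.044 for *MSMO1*. The cause was not tested. *HMGCS1*, *INSIG1*, *SQLE*, *IDI1*, *ACAT2*, *FDFT1* and *EBP* with sip53, and *SQLE*, *CYP51A1*, *FDPS*, *NSDHL*, *INSIG1*, *SREBF2*, *MVD* and *IDI1* in *ZMAT3*-KO, kept direction and call in every refit at the same threshold.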
